A study of Mus musculus with 12 samples.

Results

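The interleukin-1 family and its receptors were followed through 8 genes, Il1a, Il1b, Il1rn, Il1r1, Il1r2, Il33, Il1rl1 and Il18, in tumours grown from 4T1, a mammary carcinoma line of the mouse that serves as a model of triple-negative breast cancer. The genes were taken as a list of named members of the family and its receptors, and all 8 were present among the 19369 genes of the Total tables and the 18574 genes of the CD45 tables. The tumours were grown in the mammary fat pad of female BALB/c mice aged 9 to 11 weeks. There were 6 groups, namely the single-cell-derived 4T1 clones E, EM1, EM2, EM3 and M, which the labels place along an epithelial, intermediate and mesenchymal range, and the Parental line. Each clonal group stands for 1 clone, and 1 tumour per group was sequenced, so no comparison between tumours has a replicate. Every tumour gave 2 libraries, 12 in all: Total, from the dissociated cells, and CD45, after magnetic bead enrichment for CD45, the common leukocyte antigen. The authors deposited an annotation of each cell, and the genes are described over its classes: tumour cells, fibroblasts, endothelial cells and immune classes in the Total libraries, and immune classes and subtypes in the CD45 libraries.

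Interleukin-1 alpha and interleukin-1 beta are inflammatory cytokines that act on the same signalling receptor, Il1r1, together with an accessory chain. Il1rn encodes the receptor antagonist, which occupies Il1r1 without starting a signal, and Il1r2 encodes a decoy receptor that binds the cytokines and lacks a signalling domain. Il33 encodes an alarmin held in the nuclei of stromal and epithelial cells, its receptor is the product of Il1rl1, also called ST2, and Il18 encodes a related cytokine that, like interleukin-1 beta, is cut to its active form by caspase-1. In tumours, myeloid cells are well-known sources of interleukin-1 beta, while ST2 is known on regulatory T cells, type 2 innate lymphoid cells, mast cells and some stromal cells.

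The members lie on 4 chromosomes of GRCm38 (mm10), the build that the submitters' processing notes name. Il1a (chr2:129299610-129309972) and Il1b (chr2:129364570-129371139) are neighbours on the minus strand with 54598 bases between them, and Il1rn (chr2:24336853-24351494) is far from both on the same chromosome. Il1r2 (chr1:40074079-40125231), Il1r1 (chr1:40225080-40317257) and Il1rl1 (chr1:40429570-40465415) lie in this order on the plus strand of chromosome 1. Il33 (chr19:29925114-29960718) and Il18 (chr9:50554827-50581840) stand alone. The 250 bases before the start site are shown for the neighbouring ligand genes Il1a and Il1b, whose levels were both lowest in macrophages of M, and for the first start of Il1rl1, whose levels in 2 unrelated cell types are described further on. They are RefSeq sequences on GRCm38.p6, written 5′ to 3′ on the strand of the gene, and capitals mark every match to the motifs searched, on either strand.
Il1a, chr2:129309973-129310222, minus strand: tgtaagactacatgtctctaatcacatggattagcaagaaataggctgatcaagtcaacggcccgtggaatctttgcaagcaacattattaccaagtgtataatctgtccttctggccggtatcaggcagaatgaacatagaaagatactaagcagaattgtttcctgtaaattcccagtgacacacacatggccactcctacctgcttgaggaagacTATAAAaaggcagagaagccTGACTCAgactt
Il1b, chr2:129371140-129371389, minus strand: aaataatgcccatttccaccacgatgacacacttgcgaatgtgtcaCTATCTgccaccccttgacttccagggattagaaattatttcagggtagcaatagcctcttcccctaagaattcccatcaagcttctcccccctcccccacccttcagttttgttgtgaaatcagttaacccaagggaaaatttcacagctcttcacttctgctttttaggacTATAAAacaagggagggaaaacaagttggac
Il1rl1, chr1:40429320-40429569, plus strand: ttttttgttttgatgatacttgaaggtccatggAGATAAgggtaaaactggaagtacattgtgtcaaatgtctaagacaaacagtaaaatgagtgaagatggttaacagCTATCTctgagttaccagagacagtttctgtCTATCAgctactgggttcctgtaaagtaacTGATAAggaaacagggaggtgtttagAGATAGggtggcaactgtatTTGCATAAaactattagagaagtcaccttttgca
Motifs were searched on both strands: the TATA box as TATAAA, the AP-1 site as TGANTCA, the C/EBP half-palindrome as TTGCNNAA and the NF-kB site by its consensus. Sites of GATA factors were searched in 4 spellings, with AGATAA and AGATAG as the spellings that begin with A, and with TGATAA and TGATAG as the spellings that begin with T. No match in these 3 windows overlaps another. Il1a and Il1b both have a TATA match, beginning 32 and 31 bases before the start, and 12.4% of all 32851 promoter windows of this length have one. Il1a has an AP-1 match 12 bases before its start, which 6.75% of windows have, and Il1b has a GATA match 204 bases before. The Il1rl1 window holds 5 GATA matches and 1 C/EBP match, and 9.56% of all windows have a C/EBP match. At least 1 GATA match is present in 26.5% of all windows and 5 or more in 14 windows, or 0.0426%. The limit of 5 was taken from this Il1rl1 window itself. The other start of Il1rl1 has 1 GATA match, 103 bases before it. These matches describe the letters and say nothing on which factor binds there.

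The 12 libraries held 6709 to 13467 cells and 28083101 to 122055131 UMIs (unique molecular identifiers, which tag single RNA molecules). The median ran from 1557 to 10042 UMIs per cell. Levels are given as CPM, the usual scaling of a gene's UMIs by the total UMIs of all kept cells of the same class in 1 library, and intervals are exact 95% Poisson intervals that cover counting error only. The droplet part of the cell barcodes was shared within 4 sets of libraries by 12.2% to 19.1% of the smaller library, and between sets by 0.686% to 1.91%. The sets were E with EM3, EM1 with EM2, M, and Parental, so that EM3 and E can be compared within a set, whereas M and the set it forms cannot be told apart. Whole barcodes were shared by 12 pairs of libraries, all between sets, with at most 189 in a pair. RNA free in the suspension also gives every class some UMIs of abundant genes. Beside the members of myeloid cells, the level in Cd44- Cd4+ T cells or in the T/NK class of the same library is therefore given as a background.

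Most Il1b was carried by macrophages, granulocytes and dendritic cells. The T/Myeloid Hybrid class, as the authors name it, had 30 to 106 cells per tumour and was at 4102 to 7398 CPM, above the macrophages of the same tumour in 5 of 6. In macrophages of the CD45 libraries it stood at 6570 CPM (E), 4363 (EM1), 4070.5 (EM2), 5271 (EM3), 1676 (M) and 3408 (Parental). M was the lowest and E the highest. In the Total libraries macrophages of E were at 6770 CPM and of M at 1756, again the highest and the lowest, and Parental was near M at 2133 CPM. In granulocytes Il1b was at 6889 CPM (E), 5085 (EM1), 4825 (EM2), 4880 (EM3), 4180 (M) and 5313 (Parental), a narrower range in which E was highest. The lowest tumour depended on the processing: it was M here, Parental in the Total libraries (3295 CPM), and EM2 when cells with under 650 genes were left out (1789 CPM). Granulocytes of the CD45 libraries had medians of only 690 (EM2 and Parental) to 1220 (EM3) UMIs per cell. That minimum therefore takes out many of them, and values under it describe the deeper granulocytes, whose number is not given here. In dendritic cells Il1b was at 7210 CPM (E), 4736 (EM1), 7365 (EM2), 7169 (EM3), 4349 (M) and 8350 (Parental). In the Total libraries dendritic cells of Parental were at 5159 CPM, with EM2 highest at 8019 and M lowest at 4801. Over the tumours the means in the CD45 libraries were 6530 ± 1604 CPM in dendritic cells, 5195 ± 912 in granulocytes and 4226 ± 1661 in macrophages (SD, n = 6). Dendritic cells exceeded granulocytes in 5 of 6 tumours, and granulocytes exceeded macrophages in 5 of 6. With the minimum of 650 genes per cell granulocytes exceeded macrophages in M alone. The means of these neighbours in the order differed by less than the SD of dendritic cells and of macrophages, and by more than that of granulocytes. By number of molecules, macrophages led: they held 58.3% of the Il1b UMIs of the M CD45 library and 76.8% to 80.4% in the other tumours, while granulocytes held 32.3% in M and 3.85% to 8.08% elsewhere.

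The background of Il1b was high. Cd44- Cd4+ T cells, which are not known as a source of it, carried 721 CPM (E), 383 (EM1), 479 (EM2), 752 (EM3), 122 (M) and 471 (Parental). This background was lowest in M, the tumour whose macrophages also had the least Il1b, and in every tumour it was below the level of each of the 3 myeloid classes. To compare shares of cells across depths, each cell was thinned to 500 UMIs. At that depth 63.0% of macrophages of E and 28.8% of M had an Il1b UMI, against 33.3% and 7.50% of Cd44- Cd4+ T cells (42 in M), with 0 and 3 shallower macrophages and 3 and 2 shallower T cells left out. Without thinning the shares were 93.9% and 66.5% of macrophages, at medians of 6013 and 7670 UMIs per cell, and 68.5% and 14.3% of the T cells, at medians of 1512 and 1268. In the Total libraries the T/NK class of M stood out with 2177 CPM of Il1b, against 205 to 545 in the other 5 tumours. The granulocyte markers S100a8, S100a9, Csf3r, Cxcr2 and Retnlg summed to 4767 CPM in that class of M and to 538 to 2429 in the others, and the 4 basophil markers to 121 CPM against 3.96 to 59.7. Cells with UMIs of at least 2 of these markers, Mcpt8 or Prss34 among them, and not mast-like as defined further on, numbered 8 of the 1098 T/NK cells of M and held 17.2% of the Il1b of the class. Without them it stood at 1818 CPM. That rule for basophil-like cells was chosen after the values were seen.

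Il1a, the other ligand, was carried mostly by macrophages, which held 74.8% to 89.7% of its UMIs in the CD45 libraries. There it was at 757 CPM (E), 499 (EM1), 398 (EM2), 558 (EM3), 236 (M) and 443 (Parental). The order of tumours was led by E and closed by M, as for Il1b in the same cells. In granulocytes Il1a was at 577 CPM (E), 214 (EM1), 191 (EM2), 198 (EM3), 286 (M) and 350 (Parental), so that E exceeded each of the other tumours. E was again the highest in the Total libraries, and Parental and EM2 were lower than here, at 162 and 109 CPM. Macrophages exceeded granulocytes in 5 of 6 tumours, with M as the exception. With the minimum of 650 genes per cell, granulocytes of M were at 175 CPM, below their macrophages, and EM1 was the lowest at 90.5 CPM. In dendritic cells of the CD45 libraries Il1a ran from 31.7 CPM in M to 333 in E, against 34.9 and 82.9 CPM in Cd44- Cd4+ T cells, and the value in M was thus not above background. With cells thinned as for Il1b, 0% to 6.53% of these dendritic cells had an Il1a UMI, against 0% to 7.14% of Cd44- Cd4+ T cells. In the Total libraries dendritic cells were at 28.8 CPM in M to 62.0 in E. The T/NK class there was at 15.0 CPM in EM1 to 66.3 in M, and dendritic cells exceeded it in 4 of 6 tumours. These ranges overlapped, so over the tumours Il1a of dendritic cells was not separated from background throughout. In E of the CD45 libraries it stood above background, at 333 against 82.9 CPM. The part of macrophage RNA in that value was not tested.

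**Figure D1:**
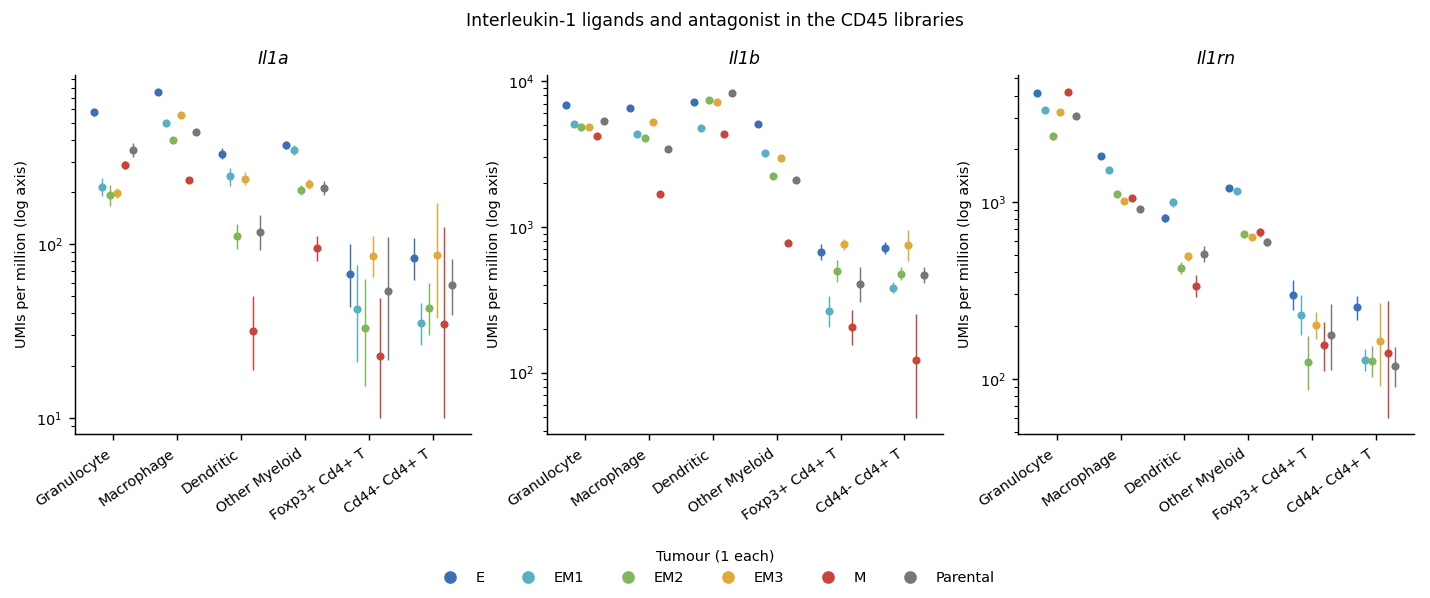
CPM of Il1a, Il1b and Il1rn in 6 immune classes of the CD45 libraries on a log axis, with 1 point per tumour and exact 95% Poisson intervals, which are clipped at 10 CPM. Il1b in macrophages of M (1676 CPM) is the lowest of the 6, and the T cell subtypes on the right show the background.

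Il1rn, the antagonist, was high in granulocytes. In granulocytes of the CD45 libraries it was at 4132 CPM (E), 3316 (EM1), 2349 (EM2), 3243 (EM3), 4194 (M) and 3073 (Parental). E and M were the highest and EM2 the lowest. Parental of the Total libraries was at 1820 CPM, next to EM2 at 1833, and with the minimum of 650 genes per cell EM1 and Parental of the CD45 libraries were at 1959 and 1895 CPM. In macrophages it was at 1814 CPM (E), 1521 (EM1), 1109 (EM2), 1012 (EM3), 1056 (M) and 912 (Parental). Here E was highest, and M was among 4 tumours between 912 and 1109 CPM. Dendritic cells held 337 CPM in M to 997 in EM1, and Cd44- Cd4+ T cells 118 in Parental to 253 in E. Over the 6 tumours the mean in granulocytes was 3385 ± 694 CPM, in macrophages 1237 ± 352 and in dendritic cells 596 ± 254 (SD, n = 6). Granulocytes exceeded macrophages in 6 of 6 tumours, and in 5 of 6 with the minimum of 650 genes per cell, where EM2 granulocytes were at 935 CPM. Although granulocytes had the higher level, they held only 7.09% to 23.1% of the Il1rn UMIs of a CD45 library outside M, and macrophages held 69.3% to 82.1%. In M the macrophage share was 51.0%.

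Set against Il1b in the same cells, Il1rn was most abundant in M. The number of Il1rn UMIs per Il1b UMI in granulocytes was 1.00 (M) (95% interval 0.983 to 1.02), against 0.600 (E), 0.652 (EM1), 0.487 (EM2), 0.665 (EM3) and 0.578 (Parental). In macrophages it was 0.630 (M) (0.619 to 0.641), against 0.276 (E), 0.349 (EM1), 0.273 (EM2), 0.192 (EM3) and 0.267 (Parental). M stood above each of the other tumours in both classes. In macrophages this went with a low Il1b and not with a high Il1rn, since both genes were lower in M than in E. The class named Other Myeloid by the authors had 0.866 in M and 0.215 to 0.360 in the other tumours. The Total libraries, which are separate libraries of the same tumours, gave 0.874 in granulocytes and 0.536 in macrophages of M, against 0.515 to 0.586 and 0.223 to 0.350 in the other tumours. In dendritic cells M was not the highest, with 0.0775 against 0.211 in EM1 and 0.113 in E in the CD45 libraries. The order differed in the Total libraries, where Parental was highest at 0.0846. There M came next at 0.0521, E was at 0.0431 and EM1 was lowest at 0.0250. The CD45 dendritic class of EM1 also had the most macrophage marker RNA, and its part in the ratio was not tested. The ratio compares 1 gene with another only within this assay, since the capture of the 2 transcripts may differ. A score of epithelial-mesenchymal state, taken as the mean log2 level of 12 mesenchymal genes less that of 13 epithelial genes in tumour cells, was -1.88 (E), 1.11 (EM1), 1.64 (EM2), 3.25 (EM3), 2.40 (M) and 0.76 (Parental). EM3, with the highest score, had the lowest ratio in macrophages, so the ratio in macrophages did not follow the score through the tumours. In granulocytes EM3 came next after M, at 0.665 (0.650 to 0.679) in the CD45 libraries and 0.586 (0.565 to 0.607) in the Total libraries. It was not separated from EM1, whose intervals were 0.628 to 0.677 and 0.542 to 0.618. In the Total libraries its interval also overlapped that of E (0.553 to 0.580). Granulocytes of E, with the lowest score, were at 0.600 in the CD45 libraries, above EM2 (0.487) and Parental (0.578).

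**Figure D2:**
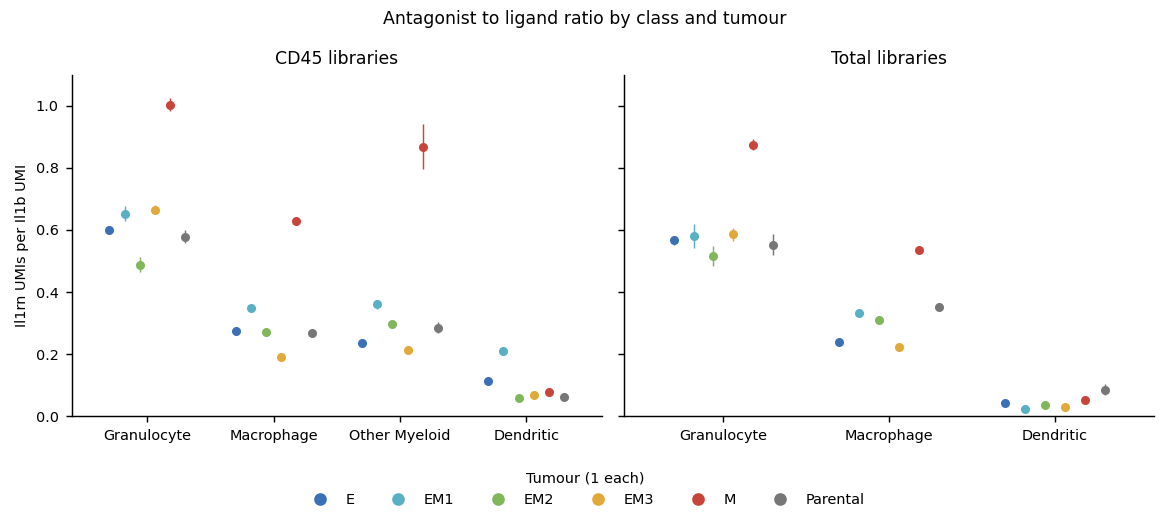
Il1rn UMIs per Il1b UMI in myeloid classes of the CD45 libraries (left) and the Total libraries (right), with 1 point per tumour and exact 95% intervals. M is highest in granulocytes (1.00 and 0.874) and macrophages (0.630 and 0.536) of both library types, and not in dendritic cells.

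Il1r2, the decoy receptor, was highest in level in granulocytes and dendritic cells. In granulocytes of the CD45 libraries it was at 1850 CPM (E), 1101 (EM1), 1361 (EM2), 1445 (EM3), 1095 (M) and 1268 (Parental). Granulocytes of EM2 were at 756 CPM with the minimum of 650 genes per cell. In the Total libraries E was again highest, at 1570 CPM, and Parental was lowest, at 806. In dendritic cells of the CD45 libraries Il1r2 was at 671 CPM (E), 579 (EM1), 1018 (EM2), 704 (EM3), 1226 (M) and 1835 (Parental). The tumours thus stood in a different order in the 2 classes: E led the granulocytes, and Parental, M and EM2 led the dendritic cells. In the Total libraries the same 3 tumours led the dendritic cells in another order, Parental at 1709 CPM, EM2 at 1661 and M at 1324. Granulocytes exceeded dendritic cells in 4 of 6 tumours, and in 3 of 6 with the minimum of 650 genes per cell, so neither class was the higher throughout. The dendritic markers Flt3, Zbtb46, Xcr1, Cd209a and Ccr7 summed in the dendritic class to 2035 CPM (E), 2241 (EM1), 3373 (EM2), 2332 (EM3), 3486 (M) and 4147 (Parental), and the macrophage markers were lowest there in M, at 1224 CPM, and highest in EM1, at 5595 CPM. The 3 tumours high in dendritic markers were the 3 high in Il1r2. The part of these markers in the result was not tested.

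Macrophages had a lower level of Il1r2, at 351 CPM (E), 216 (EM1), 277 (EM2), 188 (EM3), 134 (M) and 391 (Parental), with Parental and E highest and M lowest. By number of molecules, macrophages nevertheless exceeded dendritic cells in every tumour and granulocytes in every tumour but M, since their class was far larger. In Parental it held 22092729 UMIs of all genes, against 1426946 in granulocytes. Effector and regulatory CD4 T cells also carried Il1r2. Cd44+ Cd4+ T cells were at 130 CPM in Parental to 404 in EM3 and Foxp3+ Cd4+ T cells at 149 in EM3 to 312 in E, against 30.4 to 81.3 in Cd44- Cd4+ T cells, the background subtype. At 500 UMIs per cell, 2.42% to 10.2% of Cd44+ Cd4+ T cells and 4.12% to 11.9% of Foxp3+ Cd4+ T cells had an Il1r2 UMI, against at most 3.35% of Cd44- Cd4+ T cells and 38.1% to 52.3% of granulocytes. Thinning left out 88 shallower granulocytes in EM3 to 363 in Parental, where 1304 were kept. Without thinning the shares ran from 5.36% to 18.6%, 10.7% to 29.2%, 3.13% to 11.3% and 50.1% to 71.9% in that order.

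Il1r1, the signalling receptor, was a gene of the non-immune classes. In the Total libraries fibroblasts held 407 CPM (E), 387 (EM1), 287 (EM2), 353 (EM3), 260 (M) and 238 (Parental). Tumour cells held 87.0 CPM (E), 152 (EM1), 92.6 (EM2), 142 (EM3), 118 (M) and 67.6 (Parental), so that EM1 and EM3 were highest and Parental lowest. Fibroblasts exceeded tumour cells in 6 of 6 tumours, with means of 322 ± 70.0 and 110 ± 33.0 CPM (SD, n = 6). Endothelial cells, of which there were 37 to 147 per library, ran from 91.7 CPM in EM1 to 174 in EM3. Tumour cells nevertheless held most of the Il1r1 molecules, 76.7% to 92.9% of a Total library in 5 tumours and 35.1% in E, where only 788 tumour cells were kept. Granulocytes and macrophages of the same libraries had 11.5 to 24.7 CPM. In the CD45 libraries macrophages had 6.30 to 15.7 CPM and granulocytes 1.48 to 4.20, and NK cells as the authors' broad class names them had no UMI in any tumour. The T cell subtype that stood out was Trdc+ DN T, cells with a gamma-delta receptor gene, with 695 CPM (E), 197 (EM1), 404 (EM2), 521 (EM3), 242 (M) and 210 (Parental). The 95% interval was 436 to 1052 in E and 25.4 to 758 in Parental. Only 6 to 25 such cells and 2 to 22 Il1r1 UMIs were behind each value, and every other T subtype was at 25.8 CPM or less in each tumour.

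**Figure D3:**
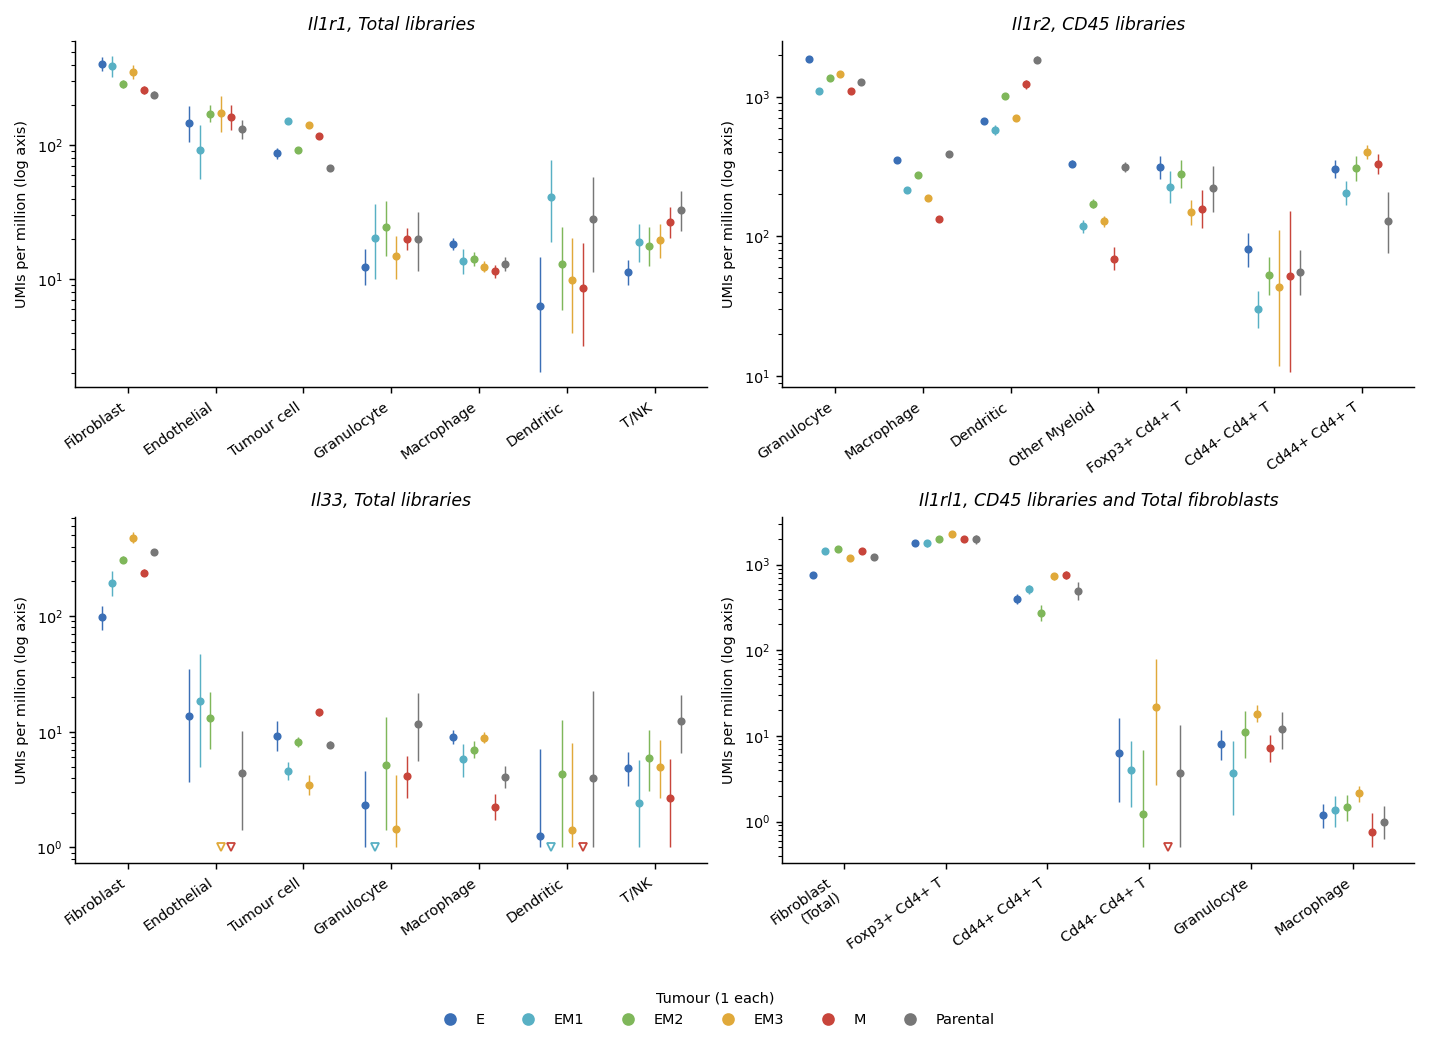
CPM on log axes of Il1r1 and Il33 in classes of the Total libraries, Il1r2 in the CD45 libraries, and Il1rl1 in CD45 subtypes and in Total fibroblasts, with 1 point per tumour and exact 95% Poisson intervals. Open triangles at the foot of a panel mark classes with no UMI and intervals are clipped there. Fibroblasts lead for Il1r1 and Il33, and Foxp3+ Cd4+ T cells lead for Il1rl1 with 1779 to 2268 CPM.

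Il33, the alarmin, had its highest level in fibroblasts, and every other class of the Total libraries was at 18.3 CPM or less in each tumour. In fibroblasts it was at 97.4 CPM (E), 194 (EM1), 308 (EM2), 478 (EM3), 237 (M) and 362 (Parental), from 66 to 1433 UMIs in 52 to 263 cells. EM3 was the highest and E the lowest, with intervals that did not overlap (428 to 531 and 75.6 to 123). The fibroblast class of E also held the most RNA of other cells: the 4 T cell markers summed there to 750 CPM, against 80.7 to 272 in the other tumours, and the macrophage markers to 1380 CPM against 238 to 1084. The part of that RNA in the low Il33 of E was not tested. Tumour cells had 3.46 CPM of Il33 in EM3 to 14.7 in M and macrophages of the Total libraries 2.25 in M to 9.06 in E. Because tumour cells and macrophages were many, these low levels still came to 12.5% to 52.3% and 3.35% to 53.5% of the Il33 UMIs of a library. The T/NK class, as background, was at 4.84 CPM (E), 2.42 (EM1), 5.94 (EM2), 4.97 (EM3), 2.69 (M) and 12.3 (Parental). Tumour cells were below that class in EM3 and Parental, and macrophages in M and Parental. Elsewhere each was above it. The part of free RNA in these shares was not tested. Fibroblasts held 60.6% in EM2 and 64.4% in Parental, and less in the other 4 tumours, from 19.0% in E to 43.2% in M. In the CD45 libraries, enriched for leukocytes, macrophages were at 1.16 CPM in M to 12.8 in E. They held 80.0% to 95.8% of the Il33 UMIs there. Cd44- Cd4+ T cells had no Il33 UMI in any tumour, where 3 UMIs would stand at 4.69 CPM in E and 52.3 in M. Gzmb+ Cd8+ T cells of EM3 were at 15.5 CPM from 12 UMIs, above its macrophages at 5.99.

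Il1rl1, the receptor for the Il33 product, was carried chiefly by 2 unrelated groups of cells. In Foxp3+ Cd4+ T cells, the regulatory T cells, it was at 1812 CPM (E), 1779 (EM1), 1995 (EM2), 2268 (EM3), 1984 (M) and 1982 (Parental). The mean was 1970 ± 174 CPM (SD, n = 6), and the range over tumours was narrow. Cd44+ Cd4+ T cells had 398 CPM (E), 515 (EM1), 271 (EM2), 728 (EM3), 751 (M) and 497 (Parental), with EM3 and M the highest. Foxp3+ Cd4+ T cells exceeded them in 6 of 6 tumours. Cd44- Cd4+ T cells had no UMI in M and at most 21.8 CPM in the other tumours. At 500 UMIs per cell, 44.3% to 51.8% of Foxp3+ Cd4+ T cells and 7.48% to 20.6% of Cd44+ Cd4+ T cells had an Il1rl1 UMI, against at most 0.248% of Cd44- Cd4+ T cells. The unthinned shares were 62.4% to 72.7% and 11.3% to 31.1%, at medians of 987 to 1584 UMIs per Foxp3+ cell. Foxp3+ Cd4+ T cells held 51.3% to 63.9% of the Il1rl1 UMIs of each CD45 library.

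Fibroblasts were the other group, with 752 CPM of Il1rl1 (E), 1443 (EM1), 1521 (EM2), 1184 (EM3), 1444 (M) and 1213 (Parental). E was the lowest, as for Il33, and the same class had the T cell RNA named above. The mean was 1259 ± 283 CPM (SD, n = 6). At 500 UMIs per cell 12.6% of fibroblasts of E and 25.0% to 34.7% in the other tumours had a UMI. The share of a Total library's Il1rl1 UMIs held by fibroblasts ran from 22.1% in E to 80.2% in EM2. Mast cells are a known site of ST2 and have no class of their own in the annotation. Cells with UMIs of at least 3 of the 7 mast markers Kit, Cpa3, Mcpt4, Cma1, Tpsb2, Fcer1a and Ms4a2, a rule chosen after the values were seen, numbered 69 over the Total and 23 over the CD45 libraries. They held 2.47% and 2.45% of all Il1rl1 UMIs. Their own level was 609 CPM in Parental to 2111 in EM1 in 5 Total libraries and 1891 in E to 3115 in EM1 in 5 CD45 libraries. In M it was 244 CPM from 5 cells in the Total library, with no UMI in the 1 cell of the CD45 library. The value of Parental mixes cell types, since 5 of its 15 cells were annotated as tumour cells. The 10 annotated as macrophages held 132 of their 149 Il1rl1 UMIs. Most of the mast-like cells of the Total libraries were annotated as macrophages. There 16 such cells of E held 56.8% of the Il1rl1 of 3869 macrophages. In the other tumours they held 43.5% to 76.9%, apart from 4.79% in M. Leaving them out took the macrophage level of E from 15.6 to 6.77 CPM and that of M from 5.29 to 5.04. Most of the 23 cells of the CD45 libraries were annotated as T/Myeloid Hybrid and held 46.7% to 64.9% of the Il1rl1 of that class in E, EM1, EM2 and Parental, 9.36% in EM3 and none in M.

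Il18 was low in each class described here. Granulocytes were at 40.9 CPM (E), 60.6 (EM1), 30.9 (EM2), 49.4 (EM3), 37.9 (M) and 24.5 (Parental) in the CD45 libraries. Macrophages had 11.2 to 16.5 CPM, under granulocytes in 6 of 6 tumours. With the minimum of 650 genes per cell EM2 granulocytes were below their macrophages, at 6.49 CPM against 16.5, and EM1 granulocytes were at 35.3 CPM. Tumour cells of the Total libraries had 11.5 to 21.8 CPM. The Total libraries repeated the order of the highest and lowest granulocytes, with 82.7 CPM in EM1 and 18.7 in Parental. Tumour cells and macrophages did not separate, since each was the higher in 3 of 6 Total libraries.

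M and E, and EM3 and E, were then compared class by class, since they stand at the ends of the labelled range and since EM3 and E share a set of barcodes. Genes with at least 50 CPM in 1 of the tumours compared were taken, and a gene was counted when its log2 ratio of (CPM + 10) was at least 1 in size, that is, 2-fold. With 1 tumour per group there is no test, and the M over E and EM3 over E ratios share the E libraries. In macrophages of the CD45 libraries, 3 of the 4 members above the floor were past the limit in M over E, all lower in M, where 6.77% of 4208 genes were past it in either direction. Il1b was 3.92-fold higher in E than in M (95% interval 3.88 to 3.97), Il1a 3.21-fold (3.11 to 3.31) and Il1r2 2.62-fold (2.52 to 2.74), while Il1rn was 1.72-fold higher in E. The median log2 ratio was -1.49 over the 4 members and 0.17 over all genes compared. In EM3 over E no member was past the limit in macrophages, where 1.28% of genes were, and the largest difference was that of Il1r2, 1.87-fold higher in E. In the Total libraries Il1r2 was past it at -1.52, with 126 CPM in EM3 and 380 in E. Over all 6 tumours, the highest and the lowest level lay at least 2-fold apart for Il1a, Il1b and Il1r2 in macrophages, where this held for 10.2% of genes.

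In granulocytes of the CD45 libraries no member of 4 was past the limit in M over E, against 4.55% of all genes. Il1a came nearest at -0.99 on the log2 scale, and was past the limit at -1.01 with a pseudocount of 1 CPM and at -1.28 with the minimum of 650 genes per cell. Il1r2 and Il1b were at -0.75 and -0.72, and Il1rn differed least, with 4194 CPM in M and 4132 in E, a log2 ratio of 0.02 whose sign differed between processing settings. In EM3 over E, Il1a was past the limit at -1.50, with 198 CPM in EM3 and 577 in E, where 0.752% of genes were past it. The highest and lowest of 6 tumours were 2-fold apart for Il1a and Il18 among 5 members, against 12.8% of genes. In dendritic cells of the CD45 libraries Il1a and Il1rn of 4 members were past the limit in M over E, both lower in M, against 6.71% of genes. Their log2 ratios were -3.04 and -1.25. Since Il1a in M was not above background, the size of its ratio is uncertain, and it ran from -3.35 to -0.89 over the alternatives. Neither was past it in the Total libraries, where Il1rn of dendritic cells was at 302 CPM in E and 250 in M and the macrophage markers of that class at 419 and 482 CPM, whereas in the CD45 libraries those markers were at 2871 CPM in E and 1224 in M. The part of macrophage RNA in the result was not tested. In EM3 over E no member was past the limit in dendritic cells, against 1.24% of genes. Il1a, Il1rn and Il1r2 were spread 2-fold over the 6 tumours, against 17.5% of genes.

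In tumour cells of the Total libraries Il1a, Il1b and Il1rn of 4 members were past the limit in M over E, where 14.9% of genes were, and the same 3 were past it in EM3 over E, where 10.8% were. All were lower than in E, with log2 ratios for Il1b of -2.62 and -2.09. Il1b was at 333 CPM in tumour cells of E, 19.3 (EM1), 30.6 (EM2), 70.4 (EM3), 45.8 (M) and 33.7 (Parental), so that E stood far above the rest. In every tumour this was below the Il1b level of the T/NK class, 545 CPM in E. The granulocyte markers in the tumour class summed to 1378 CPM in E and 180 to 532 in the others, and the macrophage markers to 236 CPM against 44.1 to 147. E was thus also the tumour with the most myeloid RNA in its tumour cells, and the part of that RNA in the difference was not tested. Restricting the class to cells with no UMI of the leukocyte gene Ptprc left Il1b at -2.41 in M over E and -1.66 in EM3 over E. Il1r1, at 24.7 CPM or less in granulocytes and macrophages, went the other way: it was 1.36-fold higher in M than in E (1.23 to 1.49) and 1.63-fold higher in EM3 (1.48 to 1.79), inside the 2-fold limit. All 4 members, Il1r1 included, were spread 2-fold over the 6 tumours, against 25.2% of genes.

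**Figure D4:**
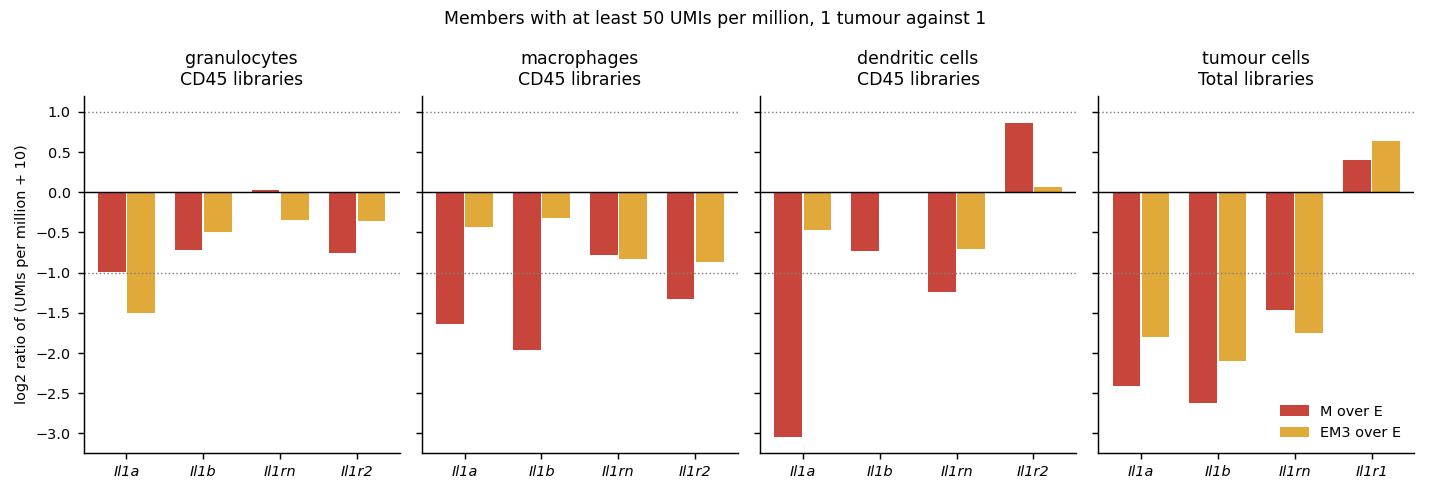
Log2 ratio of (CPM + 10) for M over E and EM3 over E, for members with at least 50 CPM in 1 of the tumours compared, in 3 immune classes and in tumour cells. Dotted lines mark 2-fold, each bar compares 1 tumour with 1 other, and bars below 0 are lower than in E. Il1a, Il1b and Il1r2 pass the lower line in macrophages of M, and Il1r2 is above 0 in dendritic cells.

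Other genes of the pathway were followed as whole lists. Of 10 inducible products of interleukin-1 signalling, 8 were above the floor in macrophages of the CD45 libraries, and 4 were past the limit in M over E, all lower in M, with a list median of -1.10. Of all genes in that comparison 6.77% were past the limit in either direction. Ptgs2, the inducible cyclooxygenase, was at 197 CPM in M and 1336 in E, the cytokine Il6 at 12.2 and 91.2, and the neutrophil chemokines Cxcl2 and Cxcl3 at 1915 and 5215 and at 543 and 1449 CPM. In dendritic cells 5 of 6 were past it, where 6.71% of all genes were, all lower in M, with a list median of -1.42 against -0.04 over all genes, led by Il6 (-1.87), Cxcl2 (-1.61), Cxcl1 (-1.46) and Ptgs2 (-1.39). The macrophage markers of that class were at 2871 CPM in E and 1224 in M, and their part in these differences was not tested. In granulocytes Cxcl3 (-2.18) and Ptgs2 (-1.39) of 6 were lower in M, where 4.55% of all genes were past the limit. In EM3 over E this list gave 0 of 8 in macrophages (1.28% of all genes), Ccl2 alone of 7 in dendritic cells (1.24%), where it was higher in EM3 at 1.30, and Tnf alone of 6 in granulocytes (0.752%), where it was lower at -1.52. In tumour cells genes of the list were past the limit in both directions, where 14.9% of all genes were past it in M over E and 10.8% in EM3 over E. In M over E, 2 of 8 were higher, Ccl2 (2.54) and Ptgs2 (1.41), and 4 were lower, among them Csf2 (-3.16) and Cxcl3 (-2.28). Csf3, the granulocyte growth factor, was lower at -1.90 and stood at 885 CPM in M and 3329 in E. In EM3 over E, 1 of 7 was higher, Ptgs2 at 2.76, with 5179 CPM in EM3 and 757 in E, and 3 were lower, Cxcl3 (-1.58), Csf2 (-1.12) and Csf3, which was just past the limit with 1659 CPM in EM3. The tumour class of E held the most granulocyte and macrophage marker RNA, as given above, and its part in the genes lower than in E was not tested.

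Of 15 signalling genes, 9 to 11 were above the floor. In macrophages in M over E 1 of 11 was past the limit, against 6.77% of all genes, the NF-kB subunit gene Nfkb1, at 387 CPM in M and 796 in E. It was past the limit the other way in tumour cells in EM3 over E, as 1 of 9 against 10.8% of all genes, at 1853 CPM in EM3 and 833 in E. Of 10 inflammasome and processing genes, 2 to 5 were above the floor. In dendritic cells Nlrp3, a sensor of the inflammasome, and Pycard, its adaptor, were lower in M at -1.32 and -1.85, 2 of 5 against 6.71% of all genes and with the macrophage markers as given above, and in the other 3 classes none was past the limit in M over E. Of 6 co-receptors and binding proteins, at most 3 were above the floor. Of 3 in granulocytes, where 4.55% of all genes were past the limit in M over E, Il18bp, whose product neutralises interleukin-18, was lower in granulocytes of M at 28.1 CPM against 72.3 in E, and no other was past the limit. Of the 5 other ligands listed, 1 was found among the genes of the tables and it was under the floor in all 4 classes.

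The genes most like each member were sought over 70 units, each a CD45 subtype of 1 tumour with at least 50 cells, from 16 subtypes and among 8492 genes, by Pearson's r of log2(CPM + 10). The units of 1 library share its depth and its free RNA, so these values describe a pattern over cell types. Il1b was nearest to Cd14 (r = 0.95), Csf2ra (0.94) and Nlrp3 (0.94), and Il1a to Cd14, Ier3 (both 0.91) and Arg2 (0.90). Il1rn was nearest to Ccr1, Slc11a1 and C5ar1 (all 0.95). Il1r2 was nearest to Zswim4 (0.84), Rab11fip1 (0.83) and Mmp25 (0.82). Il1rl1 was nearest to Ccr4 (0.93), Foxp3 (0.92) and Tnfrsf4 (0.90), and Il18 to P2ry2 (0.86), Il13ra1 and Siglece (both 0.85). Il1r1 and Il33 were under the floor in these units, which leave out subtypes with fewer cells such as Trdc+ DN T, and have no nearest gene here.

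Within macrophages of the CD45 libraries, cells with an Il1b UMI had an Il1a UMI or an Il1r2 UMI more often than cells without, while the shares with Il1rn were close. At 500 UMIs per cell, an Il1a UMI was present in 24.9% of the macrophages of E that had an Il1b UMI and in 8.57% of those that had none, and in M in 16.9% and 5.13%. In the other 4 tumours the shares were 16.8% to 23.6% and 7.24% to 8.78%. The 95% intervals of the 2 shares did not overlap in E (23.4% to 26.4% and 7.34% to 9.92%) or in M (14.3% to 19.8% and 4.16% to 6.26%). An Il1r2 UMI was present in 14.3% and 7.62% of the macrophages of E with and without an Il1b UMI, in 17.5% and 5.56% of EM2 and in 11.3% and 4.63% of M. In macrophages the intervals for Il1a and for Il1r2 did not overlap in any of the 6 tumours, in CD45 or in Total libraries. Only pairs of members were compared, so the share of all genes that differ in this way was not measured. The difference is therefore not shown to be particular to these genes. An Il1rn UMI was present in 47.5% of the macrophages of E with an Il1b UMI and in 48.3% of those without, and in M in 34.3% and 31.5%. In granulocytes of the CD45 libraries the shares for Il1a were 20.7% and 9.00% in E, and 8.09% to 11.8% and 4.05% to 6.31% in the other tumours, where the intervals overlapped in EM1 and EM2. In granulocytes of the Total libraries they overlapped in 4 of 6 tumours, all but E and M. The shares for Il1rn in granulocytes of the CD45 libraries were 69.7% and 68.7% in E and 54.1% and 46.2% in EM2, and in both library types the intervals overlapped in all 6 tumours. For Il1r2 in granulocytes of the CD45 libraries they were 47.0% and 46.8% in EM3 and 47.7% and 36.4% in EM2. The intervals for Il1r2 overlapped there in every tumour but EM2, and in every tumour of the Total libraries. Cells of 1 library are not replicates, so the intervals cover the counting of cells and not the difference between animals.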

How the data were processed

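Single-cell RNA counts were analysed from 12 libraries, a Total and a CD45 library of 1 tumour for each of 6 groups. Per the labels, cells were fixed and run on a 10x Genomics platform. Both a fixed-RNA kit and 3′ reagents are named there, and which chemistry made the libraries is not given in the sources used here. Per the submitters' processing notes, Cell Ranger and mm10 were used, and versions are not given in the sources used here. The authors deposited raw UMI counts per gene and cell, already filtered, with the fewest genes per cell ranging from 200 to 650 between libraries, and an annotation of each cell. The summed counts equalled the authors' totals in all 115612 cells.

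From these counts, 2095 doublets (1.81%, 0.948% to 2.58% per library) were called by comparison with simulated pairs and left out, which kept 113517 cells. The caller and the ratio script were tested on simulated data. UMIs were summed per class and tumour and divided by the class total (CPM). Ratios used a pseudocount of 10 CPM, a floor of 50 CPM and a 2-fold limit. Intervals are exact Poisson, Clopper-Pearson for shares of cells and conditional binomial for ratios, at 95%, and cover counting error only. Classes rest on the authors' annotation of the same cells, so they are described and not tested, and with 1 tumour per group no p-value is given. Named genes are the 8 members, listed pathway genes past the limit, up to 4 per list and comparison by size, and the 3 nearest genes of each member. Ptgs2 in tumour cells in M over E was named after its value was seen, as were the mast-like and basophil-like cells and the levels without them. The members, lists and limits were chosen with earlier results of these data known. Alternatives were another pseudocount, floor, scaling, gene minimum, doublets kept and the other library type. Analyses used numpy 2.4.6, pandas 2.3.3, scipy 1.17.1, scikit-learn 1.9.0 and scikit-image 0.26.0.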

Additional observations from a re-analysis of the deposited data

Results flagged for a closer look

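Il1r2 differed between M and E in opposite directions in different myeloid classes, in both library types. In dendritic cells M over E was 1.83-fold in the CD45 libraries (95% interval 1.66 to 2.00) and 1.64-fold in the Total libraries (1.48 to 1.82). In granulocytes it was 0.592 (0.570 to 0.615) and 0.575 (0.553 to 0.597), and in macrophages 0.381 (0.365 to 0.398) and 0.328 (0.315 to 0.341). The dendritic and granulocyte ratios stayed inside the 2-fold limit in all 7 settings, and the macrophage ratio was past it in all 7. In the CD45 libraries the dendritic class of M had more dendritic and less macrophage marker RNA than that of E. The part of these markers was not tested. With 1 tumour per group the difference between the classes was not tested, and the 2 libraries of a tumour are not independent animals.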

How the results depend on the processing

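No call changed direction under the alternatives. Of the counts of members past 2-fold, those that moved by over 1.5 times were M over E in granulocytes, 0 with the settings reported and 1 with a pseudocount of 1 CPM or with a minimum of 650 genes per cell, the spread in granulocytes, 2 and 5 with that minimum, the spread in dendritic cells, 3 and 5 with a floor of 10 CPM, EM3 over E in macrophages, 0 and 1 in the Total libraries (Il1r2, at -1.52), and M over E in dendritic cells, 2 and 0 in the Total libraries. The cause was not tested, except that the lower floor lets more members in. Median-of-ratios scaling moved the median log2 ratio of all genes from 0.17 to -0.14 in macrophages, from 0.11 to 0.32 in tumour cells and from 0.00 to 0.11 in granulocytes in M over E, and from 0.02 to 0.33 in tumour cells and from 0.05 to -0.04 in macrophages in EM3 over E. The genes past 2-fold, higher and lower, went from 135 and 150 to 59 and 283 in macrophages and from 366 and 459 to 642 and 311 in tumour cells in M over E. In EM3 over E they went from 202 and 371 to 530 and 212 in tumour cells and from 23 and 26 to 21 and 36 in macrophages, and in M over E in granulocytes from 34 and 103 to 48 and 80. Under that scaling and the other settings Il1b in macrophages stayed between -2.27 and -1.94 in M over E. In macrophages that scaling put Il1rn past the limit in M over E at -1.08, which made 4 of 4 members. Il1rn in granulocytes, never past the limit, ran from -0.08 to 0.12. Of 102 CPM values, 11 moved by over 1.5 times with the minimum of 650 genes. All were lower and in granulocytes, whose shallower cells this minimum takes out. In the Total libraries 8 of 72 moved by over 1.5 times, with ratios to the CD45 values from 0.463 to 1.63. They included Il1a in granulocytes of EM2 and Parental, Il1b in macrophages, granulocytes and dendritic cells of Parental and Il1r2 in dendritic cells of EM2. No paired analysis was possible because each group has 1 tumour and no test was run. Levels near 20 CPM in small classes rest on few UMIs.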

Other observations

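The Cd44+Cd69+ B subtype of the CD45 libraries had 3 to 41 cells per tumour and carried more Il1b than the Cd44-MHCIIhi B subtype in 5 of 6 tumours, with EM3 as the exception. Il1b was at 8505 CPM in EM2, from 197 UMIs in 14 cells, and at 952 to 2600 CPM in the other tumours. Il1a was at 1684 CPM in EM2 and at 3365 CPM in M, the latter from 20 UMIs in 3 cells. The subtype held only 23163 UMIs of all genes in EM2 and 5943 in M. The part of myeloid RNA or of remaining doublets in these values was not tested. The T/Myeloid Hybrid class, a name given by the authors, held 1127 CPM of Il1a in 106 cells of E, above the 757 CPM of its macrophages, and 192 to 548 CPM in the other tumours. Its Il1b was highest in M, at 7398 CPM in 48 cells, against 4102 to 5713 CPM in the others, whereas the macrophages of M had the least.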
